A study of Mus musculus with 6 samples.

Results

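DNA replication and S phase genes were followed in the embryonic mouse eye with and without Oa1. The set held 41 listed genes, which load and fire replication origins, unwind and copy DNA, supply deoxynucleotides and pack new DNA into chromatin. They were chosen by name, as every probe set whose gene symbol in the platform annotation matched a member, and each gene was described by its brightest probe set over all arrays. Of the 41, 40 had such a probe set, out of 18193 genes with one on the array, and they had 88 probe sets in all out of 45037. Chaf1a, a subunit of chromatin assembly factor 1, was not analysed here.

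The data came from the posterior part of eyes at embryonic day 15.5, after the anterior parts had been cut away. The 3 Oa1-/- arrays carried RNA from embryos lacking Oa1 (Gpr143), a receptor found inside the melanosomes of pigmented cells, and the 3 WT arrays carried RNA from wild-type embryos. Each array held a pool of eyes from 6 embryos of 1 dam, and replicates are therefore separate litters. The labels used here do not state the strain, the embryos' sexes or how much of the gene was removed.

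Replication starts in G1, when the origin recognition complex, Cdc6 and Cdt1 load the ring-shaped Mcm2 to Mcm7 helicase onto DNA, and geminin (Gmnn) blocks Cdt1 once S phase has begun. Cdc45 and the GINS complex then turn the loaded ring into a working helicase, DNA polymerase alpha with its primase lays down primers, and polymerases delta and epsilon extend them on the sliding clamp PCNA. Many of these genes are switched on by E2F factors as cells pass from G1 into S phase. In the embryonic eye at this age, retinal progenitors are dividing while the first neurons leave the cell cycle. In whole tissue, a lower signal from fewer cycling cells cannot be told apart from one due to less RNA per cell.

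The E2F letters were looked up in the promoters because they are the best known shared control element of this gene set. RefSeq promoter windows (build GRCm38.p6, 250 bases before to 50 after the start) were at hand for 33 of the 41 genes. They were searched on both strands for TTTCGCGC, TTTGGCGC, TTTCCCGC and TTTGCCGC, and matches in the 2 directions may overlap. At least 1 match stood in 11 of the 33 (33.3%), against 4.62% of the 10397 tested genes with a window and 2.60% of all 27025 genes with one. The 11 were Cdc6, Cdt1, Orc1, Mcm3, Mcm5, Mcm6, Mcm7, Pola1, Pold1, Rfc3 and Lig1. Of the 5 ring subunits with a window, 4 matched, and each of these 4 held more than 1 match, which in Mcm5 and Mcm6 partly share letters on opposite strands. None of the windows of nucleotide supply (4 genes with a window), single-strand binding (3), chromatin assembly (2) or G1/S regulator genes (2) held these letters. These classes were small, and other spellings of the element were not searched. A match is a run of letters and not a measured binding site. Windows of the matched genes with the smallest unadjusted p are shown, in which capitals mark the matched letters on either strand:
Rfc3 (chr5:151651159-151651458, minus strand): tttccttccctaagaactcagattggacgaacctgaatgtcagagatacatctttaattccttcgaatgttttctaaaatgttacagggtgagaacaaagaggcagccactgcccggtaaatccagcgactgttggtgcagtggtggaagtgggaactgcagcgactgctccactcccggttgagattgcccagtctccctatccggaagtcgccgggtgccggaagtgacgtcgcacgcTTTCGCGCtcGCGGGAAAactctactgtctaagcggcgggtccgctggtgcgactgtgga
Pold1 (chr7:44548766-44549065, minus strand): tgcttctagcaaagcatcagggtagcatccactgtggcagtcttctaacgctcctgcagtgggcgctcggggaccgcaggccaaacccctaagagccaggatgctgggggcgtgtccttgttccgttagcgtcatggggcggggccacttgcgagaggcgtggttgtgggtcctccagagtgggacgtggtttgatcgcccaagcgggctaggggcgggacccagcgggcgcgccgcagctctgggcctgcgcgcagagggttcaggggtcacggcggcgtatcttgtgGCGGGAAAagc
Pola1 (chrX:93632106-93632405, minus strand): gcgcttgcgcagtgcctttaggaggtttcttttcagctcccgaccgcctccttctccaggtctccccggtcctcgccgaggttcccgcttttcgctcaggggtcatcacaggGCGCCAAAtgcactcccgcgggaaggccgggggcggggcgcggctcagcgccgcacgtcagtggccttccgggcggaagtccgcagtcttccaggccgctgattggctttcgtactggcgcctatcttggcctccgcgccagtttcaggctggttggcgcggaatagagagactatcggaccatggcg
In Rfc3 the matches lie side by side at the start site, in Pold1 the match lies just after it, and in Pola1 it lies upstream.

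Some facts of the arrays bear on what follows. Gpr143 (1420581_at) gave signals of 28.3, 39.1 and 6.02 on the Oa1-/- arrays, against 246 to 257 on the WT arrays, so each array followed its label at this probe set (log2 change −2.82, limma adjusted p = 0.318). Oa1-/- replicate 1 stood apart on the first principal component of all kept probe sets (46.0% of the variance) and had the lowest median signal of all arrays (93.6). The 18S ribosomal RNA control, read at its 3' end, gave 6348, 2618 and 2608 on the Oa1-/- arrays, against 1476, 1988 and 1988 on the WT arrays. It was higher on every Oa1-/- array than on any WT array, also at its 5' end, and highest on Oa1-/- replicate 1. WT replicate 3 stood apart on the second (18.7%), and its Y-linked signals were near the background, with Eif2s3y at 9.26 against 406 to 805 on the other 5 arrays. Values without either array stand beside some of the genes and classes that they moved.

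Across the array no probe set passed the test. Of 27029 probe sets fitted with limma, 0 (0%) had an adjusted p below 0.05, and 1110 (4.11%) had an unadjusted p below 0.05. All 40 replication genes cleared the filter on dim probe sets, and 26 had a mean signal above 1000 in both genotypes. None of the 40 passed, with limma adjusted p values from 0.985 upward. With an unadjusted p below 0.05 there was 1 gene, Pcna, which is 2.5% of the set, against 3.66% of all 12885 genes tested by their brightest probe set (1.68% higher and 1.98% lower in Oa1-/-).

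The replication genes had small differences in mean signal, in both directions. The log2 change, Oa1-/- minus WT on the log2(signal + 16) scale, was above 0 for 23 genes (57.5%) and below 0 for 17, against 50.8% above 0 among all genes tested. Its median was 0.00776, beside 0.00265 over all genes tested, and it ran from −0.27 for Pole to 0.34 for Rfc3. A difference of at least 1.2-fold in the mean occurred for 2 of the 40 genes (5%), against 10.5% of all genes tested. The replicates of a genotype also lay closer together, with a median within-genotype SD of 0.119 log2 units for these genes and 0.151 for all genes tested. Neither the SD nor the 1.2-fold share was compared with genes of matched signal, and many of the 40 genes were bright.

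The precision can be read from the 95% intervals of limma, which are per gene and not adjusted for their number. The interval lay within 1.2-fold either way for 12 of the 40 genes, within 1.5-fold for 38 and within 2-fold for 40. The 2 genes whose interval reached beyond 1.5-fold were Orc1, one of the dimmest at a mean signal of 171 in Oa1-/- and 153 in WT, and Rfc3. The median half-width of an interval was 0.226 log2 units.

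**Figure D1:**
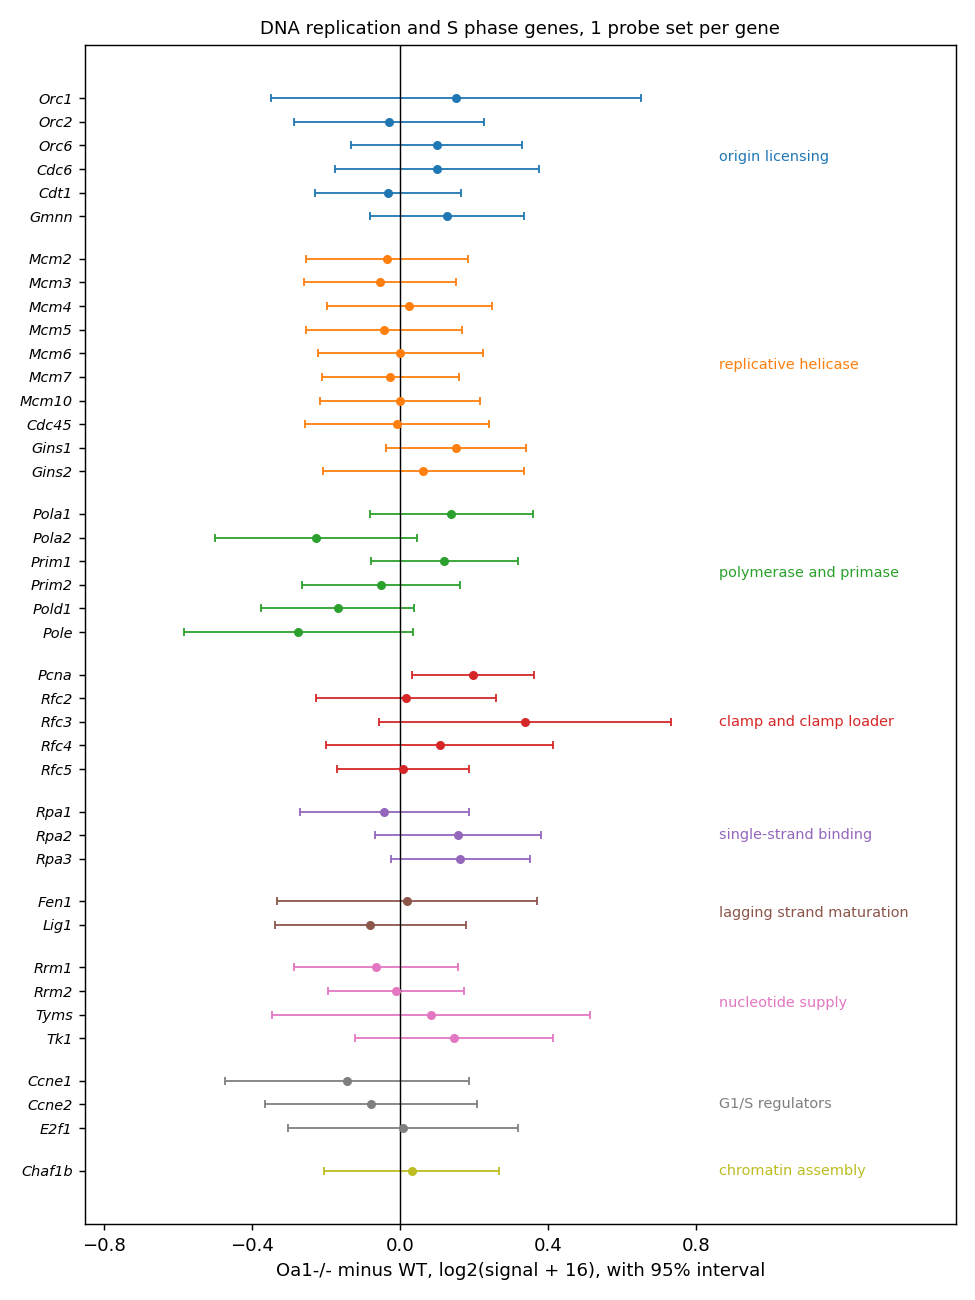
Log2 change (Oa1-/- minus WT, log2(signal + 16) scale, points) with the 95% interval of limma (bars) for 40 genes, 3 arrays per genotype, grouped by role. The points lie between −0.27 and 0.34, and the interval of 1 gene, Pcna, leaves out 0.

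Origin licensing genes came first in the order of replication. Of these 6 genes, 4 had a log2 change above 0, and the median was 0.10. The origin recognition subunits Orc1, Orc2 and Orc6 had log2 changes of 0.15, −0.03 and 0.10. Cdc6, the ATPase that recruits the helicase loader, read 681, 841 and 723 in Oa1-/-, against 764, 640 and 685 in WT, and the groups overlapped. Cdt1, the loader, read 5883, 5317 and 5321 in Oa1-/- and 5585, 5206 and 6133 in WT. Gmnn, its inhibitor, read 3229, 3030 and 2672 in Oa1-/- and 2776, 2795 and 2588 in WT, a log2 change of 0.13 with an interval from −0.08 to 0.33. Leaving out WT replicate 3, on which Orc1 and Orc6 were lowest of the WT arrays, gave 0.02 for Orc1, 0.03 for Orc6 and a median of 0.03 for the licensing genes. Orc1 was 0.00081 and the median 0.05 without Oa1-/- replicate 3, on which Orc1 was highest. Gmnn was 0.07 without Oa1-/- replicate 1, and Cdc6 was 0.01 without Oa1-/- replicate 2 and 0.04 without WT replicate 2.

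The replicative helicase was the largest class. The log2 change was above 0 for 5 of its 10 genes and below 0 for 5, around a median of −0.00406. The ring subunits Mcm2, Mcm3, Mcm5 and Mcm7 had log2 changes of −0.04, −0.05, −0.04 and −0.03, and Mcm4 and Mcm6 had 0.03 and 0.00112. Mcm7 was the brightest of the ring probe sets, at 10357, 9840 and 9538 in Oa1-/- and 9569, 9689 and 11072 in WT. The lowest of the 6 values came from Oa1-/- replicate 3 and the highest from WT replicate 3. Intervals of all 6 ring subunits lay between −0.26 and 0.25 in log2. Mcm10, which helps to fire the loaded helicase, averaged 901 ± 42.5 in Oa1-/- and 901 ± 50.5 in WT (SD, n = 3 each), and Cdc45 averaged 537 ± 26.5 in Oa1-/- and 541 ± 34.6 in WT.

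GINS was less even. Gins1 read 2139, 1857 and 2024 in Oa1-/-, against 1805, 1800 and 1799 in WT. All 3 Oa1-/- arrays lay above all 3 WT arrays, and the SD was 142 in Oa1-/- and 3.40 in WT. The log2 change was 0.15 (SE 0.08, limma unadjusted p = 0.103, adjusted p = 0.985). Gins2, another subunit of the same complex, had a log2 change of 0.06 with overlapping groups.

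Polymerase and primase genes differed in direction, also within 1 complex. Among the 6, 2 had a log2 change above 0, and the median was −0.11. Pola1, the catalytic subunit of polymerase alpha, read 1444, 1328 and 1350 in Oa1-/-, against 1317, 1122 and 1308 in WT, so every Oa1-/- array lay above every WT array. Pola2, its regulatory subunit, read 646, 633 and 551 in Oa1-/-, against 802, 682 and 667 in WT, the opposite order, again with no overlap. The log2 changes were 0.14 (interval −0.08 to 0.36) and −0.23 (interval −0.50 to 0.05). Pola1 was 0.06 without WT replicate 2, and Pola2 was −0.14 without WT replicate 1. The primase subunits Prim1 and Prim2 had 0.12 and −0.05, both with overlapping groups. Prim1 was 0.06 without Oa1-/- replicate 1 and 0.07 without WT replicate 3.

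The extending polymerases had lower means in Oa1-/-. Pole, the catalytic subunit of polymerase epsilon, which copies the leading strand, read 1051, 1438 and 1233 in Oa1-/-, against 1682, 1339 and 1474 in WT. The groups overlapped, the lowest value was from Oa1-/- replicate 1, and the log2 change was −0.27 (SE 0.13, limma unadjusted p = 0.0744, adjusted p = 0.985). Leaving out that array gave −0.16. Leaving out Oa1-/- replicate 2 gave −0.39, with a limma unadjusted p below 0.05 and an adjusted p above it. Pold1, the catalytic subunit of polymerase delta, read 1859, 2001 and 1797 in Oa1-/-, against 1943, 2156 and 2269 in WT, a log2 change of −0.17 (SE 0.09). The change was −0.21, of the same sign, at its other probe set (1448187_at).

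The clamp and its loader had 5 positive log2 changes of 5, with a median of 0.11, and those of Rfc2 and Rfc5 were near 0. Rfc2 had −0.18 (1457669_x_at) and 0.01 (1457638_x_at) at its other kept probe sets. With all kept probe sets of a gene averaged, the class median was 0.06. Single arrays moved the median of 0.11 as well. It was 0.04 without Oa1-/- replicate 1, without WT replicate 2 or without WT replicate 3, and 0.20 without WT replicate 1. Pcna, the sliding clamp that tethers polymerases to DNA and is a common marker of cycling cells, read 14461, 13805 and 13515 in Oa1-/-, against 12218, 12824 and 11420 in WT. The groups did not overlap, and the lowest Oa1-/- value stood above the highest WT value. The log2 change was 0.20 (SE 0.07, interval 0.03 to 0.36), a 1.15-fold difference (limma unadjusted p = 0.0249, adjusted p = 0.985). Leaving out WT replicate 3 gave 0.15, leaving out Oa1-/- replicate 1 gave 0.17 and leaving out Oa1-/- replicate 2 gave 0.20, and in these 3 cases the limma unadjusted p no longer lay below 0.05. Nor did it under quantile normalization, median centring, a fit with no intensity trend, a replicate block, or with Oa1-/- replicate 1 and WT replicate 3 both left out.

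Rfc3, a subunit of the clamp loader, had the largest positive log2 change of the set, and it rested in large part on 1 array. It read 1177, 968 and 978 in Oa1-/-, against 981, 895 and 621 in WT, where WT replicate 3 was far below the rest. The log2 change was 0.34 (SE 0.17, limma adjusted p = 0.985) and 0.14 without WT replicate 3. At the other Rfc3 probe set (1423700_at) it was 0.13, with overlapping groups, and 0.17 without WT replicate 3. Rfc2, Rfc4 and Rfc5, other loader subunits, had log2 changes of 0.02, 0.11 and 0.00774. The value for Rfc4 was 0.03 without WT replicate 3, 0.04 without WT replicate 2 or without Oa1-/- replicate 1, 0.17 without Oa1-/- replicate 2 and 0.25 without WT replicate 1. Leaving out WT replicate 1 also gave 0.47 for Rfc3, and in that fit Pcna, Pold1, Rfc3 and Rfc4 had a limma unadjusted p below 0.05. These were 4 of the 40 genes, beside 1068 of all 27029 probe sets in that fit.

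**Figure D2:**
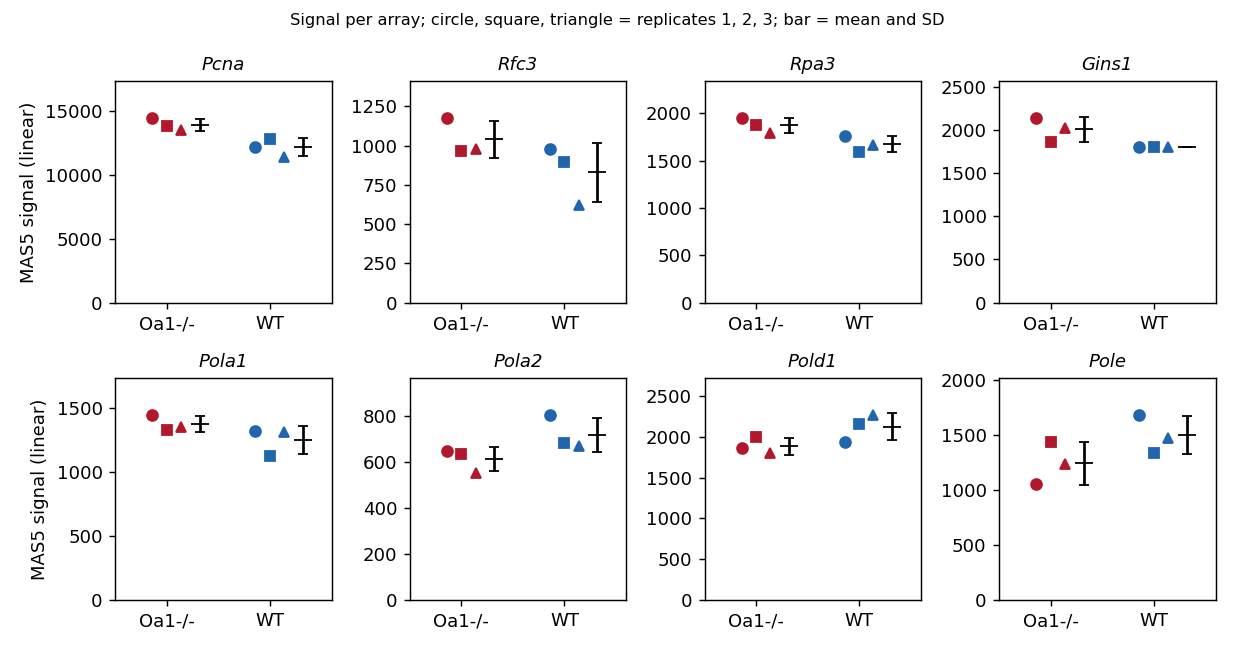
MAS5 signal (linear scale, from 0) on each array for the 8 genes that differed most or did not overlap; circle, square and triangle are replicates 1, 2 and 3 and the black bar is the mean with its SD (n = 3). Pcna, Rpa3, Gins1 and Pola1 lie higher on all Oa1-/- arrays and Pola2 lower, while WT replicate 3 is the low point of Rfc3.

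Replication protein A coats the single-stranded DNA behind the helicase. Its small subunit Rpa3 read 1952, 1882 and 1791 in Oa1-/-, against 1761, 1596 and 1666 in WT, with no overlap. The log2 change was 0.16 (SE 0.08, limma unadjusted p = 0.0818, adjusted p = 0.985). The middle subunit Rpa2 had a log2 change of 0.16 with overlapping groups, and the large subunit Rpa1 had −0.04. Without Oa1-/- replicate 1, the highest array for Rpa2, the Rpa2 value was 0.07. Another Rpa2 probe set (1454011_a_at) had 0.40 with no overlap, and 0.14 without WT replicate 3. With Rpa3, Pcna, Gins1 and Pola1, 4 of 40 genes (10%) had non-overlapping groups with the higher values in Oa1-/-, against 5.47% of all genes tested. In the other direction there was 1, Pola2 (2.5%), against 5.29%. Among 37 further replication genes, described below, 0 (0%) had non-overlapping groups with the higher values in Oa1-/- and 2 (5.41%) with the lower. The 18S control separated the genotypes as well, and its part in these differences was not tested.

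Lagging strand genes had overlapping groups. Fen1, the flap endonuclease that trims RNA primers, read 1496, 1065 and 1463 in Oa1-/- and 1306, 1147 and 1495 in WT. Lig1, the ligase that seals the fragments, read 3869, 3337 and 3149 in Oa1-/- and 3553, 3276 and 4127 in WT. Replicates differed more than genotypes in both genes, with log2 changes of 0.02 and −0.08. The class median was −0.03, and it was −0.12 without Oa1-/- replicate 1 and 0.06 without WT replicate 3. Fen1 was 0.11 without WT replicate 3, and Lig1 was −0.16 without Oa1-/- replicate 1 and 0.01 without WT replicate 3.

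Nucleotide supply genes gave 2 positive and 2 negative log2 changes, with a median of 0.04. Rrm1 and Rrm2, the subunits of ribonucleotide reductase, averaged 3238 ± 125 and 7077 ± 523 in Oa1-/-, against 3398 ± 401 and 7126 ± 361 in WT (SD, n = 3 each). Tk1, the S phase thymidine kinase, read 1225, 1000 and 975 in Oa1-/-, against 879, 1010 and 988 in WT, where Oa1-/- replicate 1 was the highest of the 6. Its log2 change was 0.15, and 0.04 without that array. Tyms, thymidylate synthase, was dim on its brightest probe set with 1 symbol (1442192_at), at 135 ± 21.5 in Oa1-/- and 126 ± 8.77 in WT. A probe set annotated to both Tyms and Tyms-ps (1424991_s_at) was bright, at 1616 ± 213 in Oa1-/- and 1637 ± 102 in WT, and had a log2 change of −0.02.

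The regulators of S phase entry and the chromatin assembly gene completed the set. The E-type cyclins Ccne1 and Ccne2, which activate Cdk2 at the G1/S boundary, had log2 changes of −0.14 and −0.08. WT replicate 1 held the highest value of both, at 832 and 790, and without it the changes were −0.00772 and 0.02. Without WT replicate 3 they were −0.26 and −0.11. E2f1, the activating transcription factor, averaged 649 ± 86.4 in Oa1-/- and 644 ± 68.1 in WT. The other kept E2f1 probe set (1417878_at) averaged 427 in Oa1-/- and 521 in WT, with overlapping groups. Its log2 change was −0.28, and −0.11 without WT replicate 3. Chaf1b, of chromatin assembly factor 1, averaged 676 ± 26.7 in Oa1-/- and 662 ± 48.4 in WT.

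Compared side by side, the class medians ran from −0.11 for polymerase and primase genes to 0.16 for single-strand binding genes. The single-strand binding median was 0.07 without Oa1-/- replicate 1. The classes held 1 to 10 genes each, and the differences between classes were not tested. On single arrays, the median of a class relative to each gene's mean over all 6 arrays also varied between arrays of 1 genotype. For the clamp and its loader it was 0.15, −0.02 and 0.04 on the Oa1-/- arrays and 0.09, −0.04 and −0.19 on the WT arrays. For the polymerase and primase genes it was −0.02, 0.01 and −0.11 on the Oa1-/- arrays and 0.06, −0.02 and 0.00847 on the WT arrays.

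**Figure D3:**
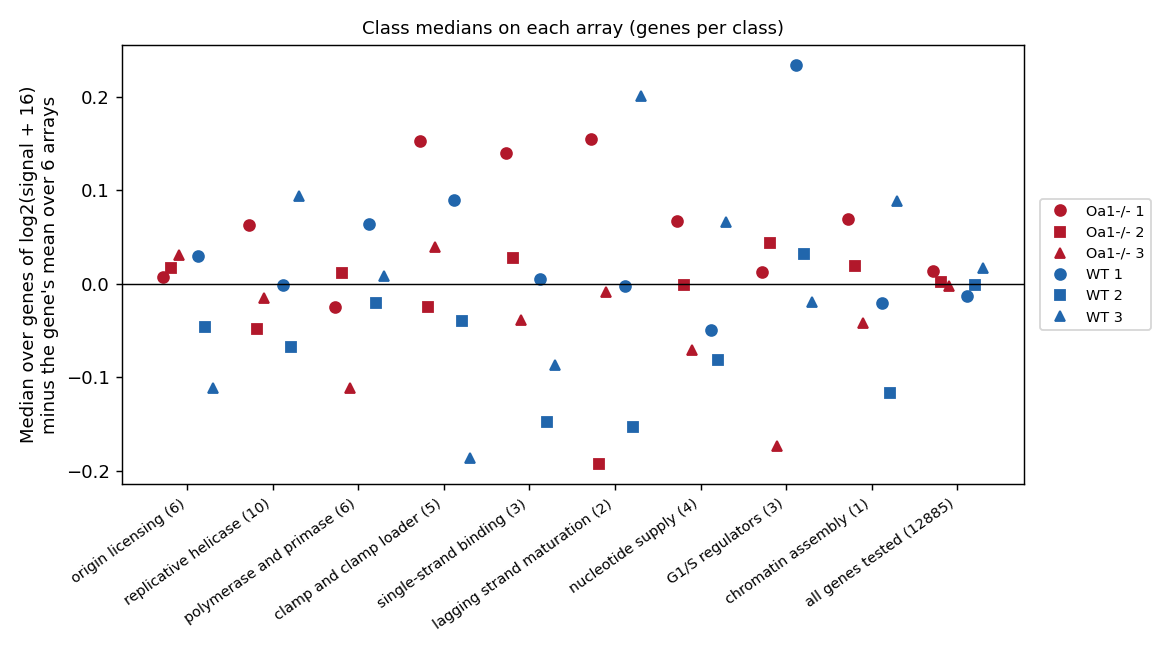
Median over the genes of a class of log2(signal + 16) minus the gene's mean over 6 arrays, for each array (red Oa1-/-, blue WT; circle, square and triangle are replicates 1, 2 and 3). The genotypes overlap in every class, and the values of all genes tested lie between −0.01 and 0.02.

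The arrays themselves set a pattern that ran across the genes. Among the Oa1-/- arrays, replicate 1 had the highest signal for 25 of the 40 genes (62.5%), while it did so for 40.4% of all genes tested. Among the WT arrays, replicate 2 was lowest for 19 genes (47.5%), against 28.0% of all genes tested. The summed signal of the 40 genes was 110255, 101929 and 101371 in Oa1-/-, against 104126, 98255 and 105945 in WT. Retinal progenitor markers (13 of 14 measured, including Ccnd1 and Pax6) summed to 82091, 79136 and 78027 in Oa1-/-, against 76505, 72596 and 83162 in WT. Both sums were highest among the Oa1-/- arrays on replicate 1 and lowest among the WT arrays on replicate 2. Of the 13 progenitor markers, 8 had a log2 change above 0 and 5 below. With a limma unadjusted p below 0.05 there was 1, Pax6, higher at a log2 change of 0.16 (against 1.68% of all genes tested). None of the 13 had a limma adjusted p below 0.05. Replicate 1 was the highest Oa1-/- array for the sums of 8 of the 12 marker lists, and WT replicate 2 the lowest WT array for 1, the progenitor list. The part of progenitor content in the array pattern was not tested.

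Markers of other cells of the eye were measured beside them. Young retinal neuron markers (14 of 15 measured) summed to 70308, 64840 and 63524 in Oa1-/-, against 56011, 60586 and 62764 in WT, with no overlap. They had 12 positive and 2 negative log2 changes, 4 with a limma unadjusted p below 0.05, all 4 higher (against 1.68% of all genes tested), and 0 with an adjusted p below 0.05. Periocular mesenchyme markers (11 of 12 measured) summed to 84428, 81677 and 79233 in Oa1-/- and 76499, 89813 and 92152 in WT, with 2 log2 changes above 0 and 9 below. Among these 11, Twist1 and Osr1 had a limma unadjusted p below 0.05, both lower (against 1.98% of all genes tested). Lens markers (8 of 8 measured) summed to 112774, 109162 and 103293 in Oa1-/- and 83701, 112814 and 115288 in WT. They had 8 log2 changes above 0 and 0 below, and 0 had a limma unadjusted p below 0.05. Cryba1 and Crybb1, the brightest of them, averaged 27461 and 25413 in Oa1-/- and 26658 and 24964 in WT. Crystallin RNA was thus bright on the arrays, though the anterior parts had been cut away. Erythroid markers (4 of 6 measured) summed to 20198 on WT replicate 1 and to between 3582 and 9466 on the other 5 arrays. Alas2, 1 of 3 erythroid markers tested, and Col2a1, 1 of 4 cartilage markers tested, had a limma unadjusted p below 0.05. Both were lower (against 1.98% of all genes tested), and neither had an adjusted p below 0.05. A marker is called measured here where it had a probe set with 1 symbol, also a dim one. Rcvrn, Rpe65, Matn1 and Hba-a1 did not clear the filter on dim probe sets, and Hba-a1 is among the 4 erythroid markers. The part of these other cells in the values of the replication genes was not tested.

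Several genes could be read at more than 1 place. After the filter, 27 genes had more than 1 probe set and 36 other probe sets beside the brightest. Of these, 13 had the opposite sign to the brightest, in most cases where the change at the brightest was near 0, and 2 differed from the brightest by more than 0.3 in log2. One was an Orc2 probe set (1418227_at), which averaged 145 in Oa1-/- and 202 in WT, with a log2 change of −0.44 (limma unadjusted p = 0.0239), while the brightest Orc2 probe set had −0.03. The other was an Mcm3 probe set (1420029_at), at 215 in Oa1-/- and 172 in WT, a log2 change of 0.29, while the brightest Mcm3 probe set had −0.05. Further probe sets of opposite sign were 1418226_at of Orc2 (0.02), 1434079_s_at of Mcm2 (0.05), 1438852_x_at of Mcm6 (−0.06) and 1433407_at of Mcm10 (−0.17). Others were 1418035_a_at of Prim2 (0.08), 1457669_x_at of Rfc2 (−0.18), 1421731_a_at of Fen1 (−0.07) and 1448127_at of Rrm1 (0.19). The rest were 1416120_at and 1448226_at of Rrm2 (0.13 and 0.02), 1438690_at of Tyms (−0.09) and 1417878_at of E2f1 (−0.28).

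WT replicate 3 divided the probe sets of 4 genes, which were picked out after their values were seen. On that array 1432538_a_at of Rfc3, 1454011_a_at of Rpa2, 1448127_at of Rrm1 and 1416120_at of Rrm2 differed from the mean of the other WT arrays by −0.58, −0.79, −0.92 and −0.65 log2 units. Other probe sets of the same genes on the same array lay at 0.12 (1423700_at of Rfc3), −0.03 (1416433_at of Rpa2), 0.27 (1415878_at of Rrm1) and 0.10 (1434437_x_at of Rrm2). Probe sets over 0.5 lower on WT replicate 3 were thus 4 of the 76 kept for the replication genes (5.26%), against 9.58% of all kept probe sets. Over 0.5 higher were 2 of the 76 (2.63%), against 3.99% of all kept probe sets. They were 1459658_at of Mcm5 (0.576) and 1417878_at of E2f1 (0.503), while the brightest probe sets of these genes lay at 0.115 and 0.196. The 3'/5' signal ratio of the Gapdh control was 0.985 on WT replicate 3 and 0.798 to 0.841 on the others. That of the beta-actin control was 1.34 on WT replicate 3 and 1.19 to 1.30 on the others.

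**Figure D4:**
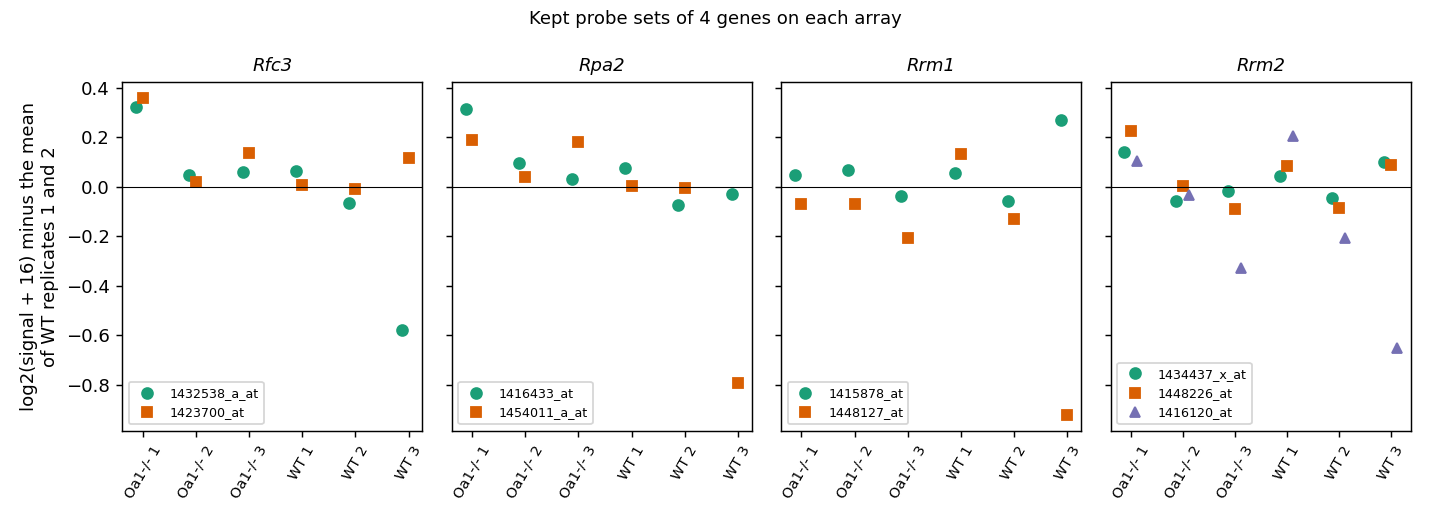
Log2(signal + 16) of each kept probe set of Rfc3, Rpa2, Rrm1 and Rrm2 minus the mean of WT replicates 1 and 2, on each array. One probe set of each gene lies at −0.58 to −0.92 on WT replicate 3, and the others of that gene stay between −0.03 and 0.27.

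Further replication genes, outside the 41, were read from a second list. Of 38 listed, 37 were measured and tested, with the log2 change above 0 for 18 and below 0 for 19 and a median of −0.012. None had a limma unadjusted p below 0.05 and none an adjusted p below 0.05. The 4 with the smallest p were Timeless, a fork protection factor, with a log2 change of −0.18, Pold3, a subunit of polymerase delta, with −0.14, Mcm9, a helicase of DNA repair, with −0.17, and Tipin, the partner of Timeless, with 0.14. For Timeless and Mcm9, 2 of the 37 (5.41%), every Oa1-/- array lay below every WT array, against 5.29% of all genes tested. For 0 of the 37 (0%) did every Oa1-/- array lie above every WT array, against 5.47% of all genes tested.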

How the data were processed

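Signals of 6 mouse expression arrays were used, 3 from Oa1-/- and 3 from WT posterior eyes at embryonic day 15.5, grouped by the sample titles. The authors deposited linear signal intensities, and the submitters' processing notes name MAS5. From the values, each array had been scaled to a trimmed mean of 500.002. Probe sets were named through the platform annotation (34945 with 1 symbol, 932 with several, 9160 with none) and a RefSeq gene table, which changed 0 symbols. Probe sets with several symbols named no gene.

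Values were taken as log2(signal + 16). Probe sets with a mean above the 40th percentile were kept, controls left out, and 27029 probe sets of 12885 genes were fitted with limma 3.58.1 in R 4.3.3 (lmFit, eBayes with an intensity trend), Oa1-/- minus WT, two-sided, with Benjamini-Hochberg adjustment over all probe sets kept and a threshold of 0.05. The fit was tested on simulated data. Low intensities have no detection call beside them, and 3 arrays per genotype limit the precision. The fold scale understates changes of dim probe sets.

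The members, classes and lists were chosen with earlier results of these data known. All 41 genes were to be named, and the 4 further replication genes with the smallest p. Other probe sets of a gene were to be named where the log2 change had another sign or differed by over 0.3. Promoters were to be shown for up to 6 genes by smallest p among those with a match, of which 3 are printed. Alternatives covered pseudocounts (1 and 64), filters, normalization, variance model, array weights, a replicate block, the choice of probe set and leaving out arrays.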

Additional observations from a re-analysis of the deposited data

How the results depend on the processing

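No replication gene reached an adjusted p below 0.05 in limma under any of the 12 processing alternatives or with any 1 array left out. Over the whole array 0 probe sets passed in each, except 2 with median centring (Gpr143 and Kantr) and 2 with array weights (Slc25a29 and Kantr). The median log2 change of the 40 genes stayed within the spread between replicates throughout. The median of the origin licensing genes was 0.029 with array weights, 0.016 with Oa1-/- replicate 1 and WT replicate 3 both left out, and 0.028 to 0.14 with 1 array left out. That of the polymerase and primase genes was −0.022 with array weights and −0.051 with only plain _at probe sets, and that of the single-strand binding genes 0.063 with both arrays left out. The cause was not tested. Of the 40 genes, 15 kept the sign of the log2 change in all alternatives and 25 turned it in at least 1, mostly from values close to 0. With quantile normalization these were Orc2 (0.0012), Mcm4 (−0.00027), Mcm6 (−0.027), Cdc45 (0.027). With median centring these were Orc2 (0.0016), Mcm7 (0.0048), Cdc45 (0.022), Rrm2 (0.020). With array weights these were Orc1 (−0.095), Mcm2 (0.028), Mcm4 (−0.0081), Mcm6 (−0.0086), Mcm10 (−0.0019), Cdc45 (0.096), Prim2 (0.0061), Rfc5 (−0.0043), Rpa1 (0.041), Fen1 (−0.069), Rrm1 (0.041), Ccne2 (0.031). With all kept probe sets of a gene averaged these were Mcm2 (0.0078), Mcm6 (−0.031), Mcm10 (−0.084), Prim2 (0.015), Rfc2 (−0.050), Fen1 (−0.026), Rrm1 (0.064), Rrm2 (0.046), Tyms (−0.0030), E2f1 (−0.14). With only plain _at probe sets these were Mcm10 (−0.17), Rrm2 (0.018), E2f1 (−0.28). With Oa1-/- replicate 1 and WT replicate 3 both left out these were Mcm2 (0.017), Mcm3 (0.015), Mcm4 (−0.097), Mcm7 (0.0089), Cdc45 (0.042), Rfc2 (−0.092), Rfc4 (−0.033), Rrm1 (0.016). With 1 array left out at a time, the log2 change turned sign for 22 genes, with ranges of −0.081 to 0.043 (Orc2), −0.089 to 0.029 (Cdt1), −0.12 to 0.026 (Mcm2), −0.096 to 0.027 (Mcm3), −0.061 to 0.083 (Mcm4), −0.13 to 0.0077 (Mcm5), −0.064 to 0.086 (Mcm6), −0.064 to 0.041 (Mcm7), −0.037 to 0.045 (Mcm10), −0.061 to 0.022 (Cdc45), −0.027 to 0.15 (Gins2), −0.044 to 0.11 (Rfc2), −0.023 to 0.040 (Rfc5), −0.14 to 0.027 (Rpa1), −0.075 to 0.18 (Fen1), −0.16 to 0.011 (Lig1), −0.14 to 0.027 (Rrm1), −0.071 to 0.028 (Rrm2), −0.023 to 0.18 (Tyms), −0.15 to 0.019 (Ccne2), −0.075 to 0.12 (E2f1), −0.019 to 0.084 (Chaf1b). The sign of Pcna, Rpa3, Gins1, Pola1, Pola2, Pold1, Pole and Rfc3 held throughout, and Pcna ran from 0.13 to 0.24. Pole ran from −0.39 to −0.05 and Rfc3 from 0.05 to 0.47. The labels do not say whether arrays with the same replicate number were handled together. Deviations of arrays with the same number correlated at −0.29, 0.16 and −0.23, and not every array correlated best with its own number. The highest correlation was 0.36, of Oa1-/- replicate 1 with WT replicate 3. Deviations within a genotype sum to 0, so these correlations cannot settle whether the arrays were paired. In the fit with the replicate number as block 0 probe sets passed, 885 had an unadjusted p below 0.05 in limma and the median log2 change of the 40 genes was 0.00776. In that fit Rfc3 was the 1 replication gene with a limma unadjusted p below 0.05. With array weights there were 4, Cdc6, Pcna, Pola1 and Rpa3, beside 3077 of all 27029 probe sets. With Oa1-/- replicate 1 and WT replicate 3 both left out there was 1, Pola2, beside 1519 of all 27029. Depth in the sense of signal limits Orc1 and Tyms, the dimmest of the genes.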
